A study of Homo sapiens with 5 samples.

Results

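The interferon genes described here were STAT2, IRF9 and IRF1, which encode transcription factors, and ISG15, IFIT1, OAS2, MX1, MX2 and IFI6, which encode effectors. They were taken by symbol from a table of gene expression in cultured human cells, and all 9 were found among its 57905 genes. Levels are in TPM, a unit of transcript abundance that corrects for transcript length and is scaled to a fixed total per library. RNA was sequenced from 4 Merkel cell carcinoma (MCC) lines, MCC13, MKL-1, MKL-2 and WaGa, and from REH, a line labelled as pre-B-cell acute lymphoblastic leukemia. MCC is a skin cancer with neuroendocrine features. Each line was grown as a culture in the same serum-containing medium, its genotype was labelled WT, and no interferon or other agent was named. There was 1 library per line, so line and library cannot be told apart. Every SD below is a spread between lines, and a line that stood alone in a test was assumed to vary as the other lines did.

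Type I interferons bind the receptor IFNAR1/IFNAR2, which activates the kinases JAK1 and TYK2. These phosphorylate STAT2, which joins IRF9 in a complex that binds the interferon-stimulated response element (ISRE) of target genes. Interferon gamma signals to the gamma-activated site (GAS), and IRF1 is a classic target of this branch. The effectors act inside the cell against viruses, and they can be expressed in tumour lines without added interferon.

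The stretches below are shown because they hold the letters that these factors are known to bind, in members whose levels are compared later. They were read from the RefSeq promoter windows of GRCh38.p14, each running from 250 bases before to 50 bases after a gene start. Of the 9 members 7 had a window, with 9 windows among them because MX1 has several starts, and MX2 and OAS2 had none. Capitals mark an ISRE core, GAAA followed by any 2 bases and then GAAA, searched on both strands, in ISG15, IFIT1, MX1 and IFI6. In IRF1 and IRF9 capitals mark TTCNNNGAA, a GAS core, which reads the same on both strands.
ISG15: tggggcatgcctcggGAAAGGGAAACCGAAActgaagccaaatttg
IFIT1: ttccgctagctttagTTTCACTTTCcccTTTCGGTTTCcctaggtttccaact
IFI6: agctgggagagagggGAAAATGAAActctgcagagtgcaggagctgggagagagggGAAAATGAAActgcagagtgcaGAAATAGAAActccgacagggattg
MX1: gagcagaaatGAAACCGAAActgaattgtc
IRF1: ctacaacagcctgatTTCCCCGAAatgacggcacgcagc
IRF9: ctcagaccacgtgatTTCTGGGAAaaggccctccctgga

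The ISG15 stretch lies at chr1:1013369-1013414 on the plus strand, and its 2 matches overlap by 4 bases. The IFIT1 stretch lies at chr10:89392492-89392544 on the plus strand, where its 2 matches read on the opposite strand. The IFI6 stretch, at chr1:27672261-27672363 on the minus strand, holds 3 matches, of which 2 sit in a repeated block of sequence. The MX1 match printed lies just after a start, at chr21:41420559-41420588 on the plus strand, and another MX1 window holds a further ISRE core at position -196 from its start. The GAS cores lie at chr5:132490874-132490912 on the minus strand for IRF1 and at chr14:24161187-24161225 on the plus strand for IRF9. The ISRE core was found in 4 of the 7 members with a window, against 3.57% of all 35116 windows and 4.38% of all genes with one. The GAS core was found in 3 of the 7 (IRF1, IRF9 and that other MX1 window), against 7.66% of windows and 9.38% of genes. STAT2 held neither. A match describes the letters of a window and is not a measured binding site.

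The label of each line was set against marker genes. Of 11 Merkel and neuroendocrine markers, 11 reached 1 TPM in MKL-1 and in MKL-2 and 10 in WaGa, but 3 in MCC13, where 5 were listed at 0, ATOH1 and INSM1 among them. Summed mesenchymal markers reached 9415 TPM in MCC13, against 19.98 to 246 TPM in the other MCC lines and 1227 TPM in REH. S100A4 of this list went the other way, with 0.311 TPM in MCC13, 1.18 to 16.1 TPM in the other MCC lines and 265 TPM in REH. In REH 8 of 10 B lineage markers reached 1 TPM, while VPREB1 was listed at 0. Some of these markers were also found in MCC: WaGa had 5 at that level, MKL-1 had 3, MKL-2 had 2 and MCC13 had 1. EBF1 held 52.7 to 64.6 TPM in the MCC lines other than MCC13, against 120 TPM in REH. The summed level of the B lineage markers was 2.83 to 116 TPM in MCC, against 5999 TPM in REH. Of 10 T, NK and myeloid markers, the defining T cell genes CD3D, CD3E and CD2 were listed at 0 in every line, and the summed level was 1.52 to 4.08 TPM in the MCC lines and 50.7 TPM in REH. In REH 3 of the 10 reached 1 TPM, ITGAM (22.0 TPM), CSF1R (17.5 TPM) and NKG7 (10.4 TPM). These 3 were lower in the MCC lines than in REH (limma adjusted p = 0.0411, 0.00575 and 0.0108). CSF1R and NKG7 were under 1 TPM in every MCC line, so they were tested through REH alone and could only be called lower. CD14 went the other way, with 0.359 TPM in REH and up to 2.71 TPM in MCC. Mitochondrially encoded genes took 3.52% to 7.84% of TPM in the MCC lines and 0.783% in REH. The part of these marker and mitochondrial differences in the levels of the members was not tested. Read depth is unknown because TPM keeps none. In bulk RNA a lower level can come from fewer expressing cells or from less RNA per cell, which cannot be told apart.

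Across the set REH was the highest line for 6 members, MKL-2 for 2 (MX1 and IFI6) and WaGa for 1 (IRF9). The median member level was 7.94 TPM in MCC13, 2.03 TPM in WaGa, 8.37 TPM in MKL-2 and 5.14 TPM in MKL-1, against 40.7 TPM in REH. Among genes at 1 TPM or more in some line, REH exceeded all 4 MCC lines for 6 of the 9 members (STAT2, IRF1, ISG15, IFIT1, OAS2 and MX2), a pattern found in 25.6% of the 22250 such genes. REH lay below all 4 for 1 member (IRF9), as did 27% of genes. With 1 library per line there is no spread within a line, so neighbours in these orders cannot be tested against each other.

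**Figure D1:**
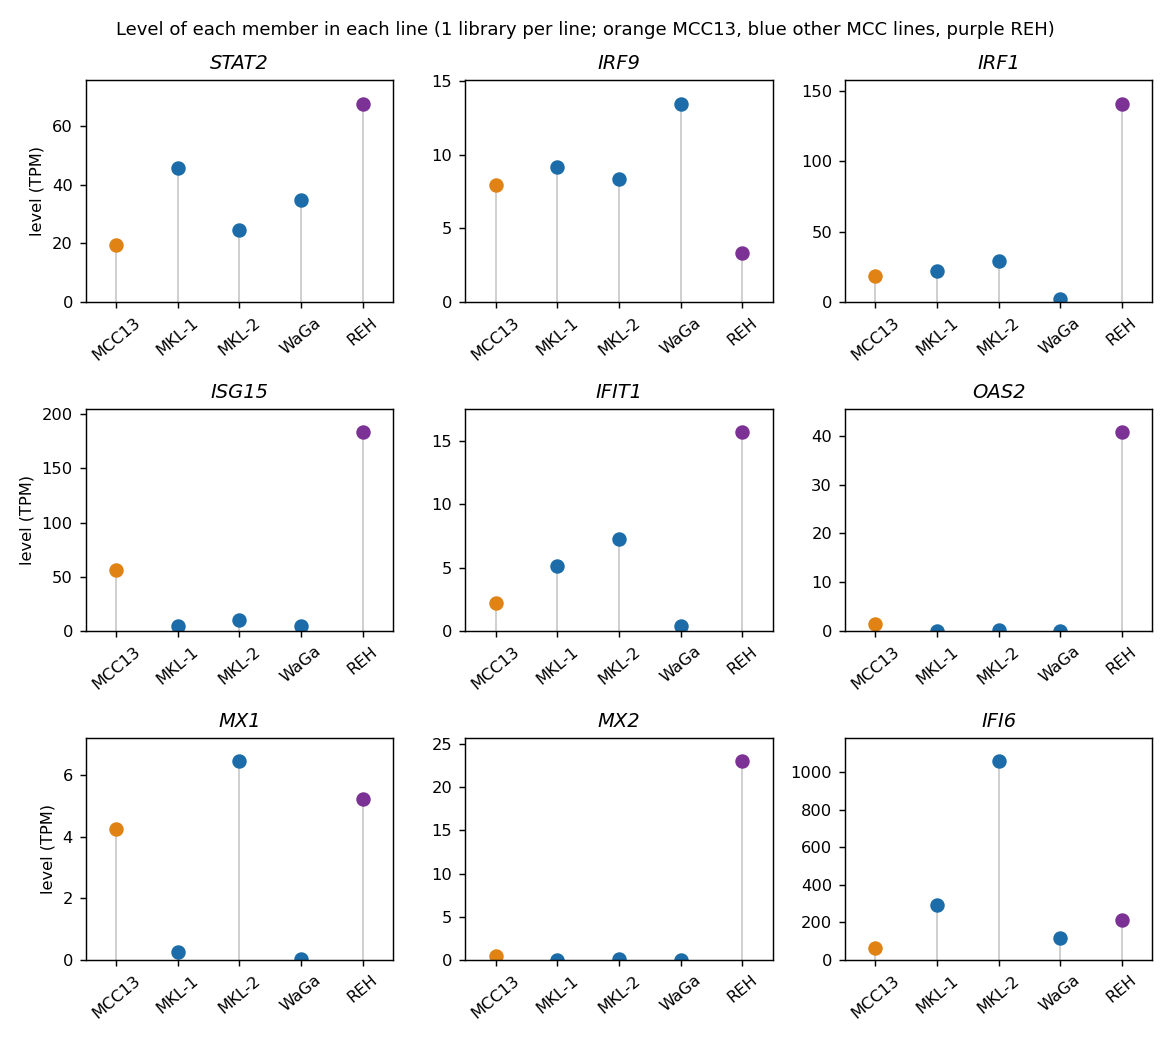
Level (TPM, linear axis from 0, with a different scale in each panel) of the 9 members in each line. Each point is 1 library, with MCC13 in orange, the other MCC lines in blue and REH in purple. REH is the highest point in 6 panels and the lowest in the IRF9 panel, and MKL-2 is the highest for MX1 and IFI6.

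STAT2 (ENSG00000170581, chromosome 12), a subunit of the type I complex, was present in every line. It stood at 19.3 TPM in MCC13, 34.8 TPM in WaGa, 24.6 TPM in MKL-2 and 45.5 TPM in MKL-1, against 67.6 TPM in REH. The MCC lines spanned 2.35-fold among themselves, averaged 31.1 ± 11.6 TPM (SD, n = 4) and all lay under REH. The difference on the log2(TPM + 1) scale, MCC minus REH, was -1.17 ± 0.55 (SE, limma adjusted p = 0.377), which did not pass.

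IRF9 (ENSG00000213928, chromosome 14), the DNA-binding subunit of the same complex, was the only member lower in REH than in every MCC line. Its level was 7.94 TPM in MCC13, 13.5 TPM in WaGa, 8.37 TPM in MKL-2 and 9.13 TPM in MKL-1, against 3.35 TPM in REH. The MCC lines lay close together (9.73 ± 2.54 TPM, SD, n = 4). The log2 difference, MCC minus REH, was 1.27 ± 0.57 (SE, limma adjusted p = 0.345) and did not pass. REH was thus the highest line for STAT2 and the lowest for IRF9, while MCC13 was the lowest MCC line for both. The ratio of STAT2 to IRF9 TPM lay between 2.43 in MCC13 and 4.99 in MKL-1, against 20.2 in REH. A same-strand protein-coding gene model overlaps IRF9 in GENCODE 29, so its reads may be shared.

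IRF1 (ENSG00000125347, chromosome 5), a transcription factor that is itself induced by interferon gamma, was low in 1 MCC line. It was measured at 18.5 TPM in MCC13, 2.03 TPM in WaGa, 29.1 TPM in MKL-2 and 22.3 TPM in MKL-1, against 141 TPM in REH. REH held 4.85 times the highest MCC level, and WaGa lay far under the other 3 MCC lines. MCC minus REH was -3.32 ± 1.41 on the log2 scale (SE, limma adjusted p = 0.322). WaGa minus the other 3 MCC lines was -2.98 ± 0.70, with an unadjusted p of 0.0105 and a limma adjusted p of 0.9998 over all genes, so the gap did not pass.

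ISG15 (ENSG00000187608, chromosome 1) encodes a ubiquitin-like protein that is attached to other proteins. Its level was 56.1 TPM in MCC13, 4.70 TPM in WaGa, 9.85 TPM in MKL-2 and 4.86 TPM in MKL-1, against 183 TPM in REH. MCC13 thus stood between the other MCC lines and REH, which held 3.26 times the MCC13 level. The log2 difference of all 4 MCC lines from REH was -3.94 ± 1.45 (SE, limma adjusted p = 0.255). Without MCC13 it was -4.69 ± 0.55 (SE, limma adjusted p = 0.0270), so ISG15 was lower than in REH in the comparison of MKL-1, MKL-2 and WaGa. MCC13 minus those 3 lines was 3.003 ± 0.57 (SE, limma adjusted p = 0.0832), which missed the threshold of 0.05.

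OAS2 (ENSG00000111335, chromosome 12), an enzyme that makes the oligoadenylate messenger for RNase L when it meets double-stranded RNA, was near the floor in MCC. The table gave 1.36 TPM in MCC13, 0.0272 TPM in WaGa and 0.228 TPM in MKL-2 and listed MKL-1 at 0, against 40.7 TPM in REH. REH held 29.9 times the highest MCC value. In the comparison without MCC13 only REH reached 1 TPM, so OAS2 could only be called lower there. MCC minus REH was -4.99 ± 0.64 on the log2 scale (SE, limma adjusted p = 0.0250), and MKL-1, MKL-2 and WaGa minus REH was -5.27 ± 0.29 (SE, limma adjusted p = 0.00885). With a pseudocount of 0.1 the difference for all 4 MCC lines was -7.19 and the adjusted p 0.126. Over the alternatives the difference ran between -7.19 and -3.09 and the adjusted p between 0.00601 and 0.131.

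The MX proteins are dynamin-like GTPases that block virus replication, and MX1 and MX2 are neighbours on chromosome 21. MX2 (ENSG00000183486) was 0.451 TPM in MCC13 and 0.0781 TPM in MKL-2 while WaGa and MKL-1 were listed at 0, against 23.0 TPM in REH. REH held 51.0 times the highest MCC value. MCC minus REH was -4.42 ± 0.37 on the log2 scale (SE, limma adjusted p = 0.00857), and MKL-1, MKL-2 and WaGa minus REH was -4.55 ± 0.21 (SE, limma adjusted p = 0.00885). The first of these calls was lost with a pseudocount of 0.1 (difference -7.03, adjusted p = 0.0624). Over the alternatives the difference ran between -7.03 and -2.45 and the adjusted p between 0.00300 and 0.0885. MX2 was under 1 TPM in all MCC lines and so was not tested among them. Against REH it was tested through the REH level alone, so it could only be called lower.

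MX1 (ENSG00000157601) did not share the order of MX2. It stood at 4.26 TPM in MCC13, 0.0162 TPM in WaGa, 6.45 TPM in MKL-2 and 0.266 TPM in MKL-1, against 5.24 TPM in REH. MKL-2 exceeded REH and MCC13 was close under it, so the groups overlapped, and MCC minus REH was -1.23 ± 1.37 (log2, SE, limma adjusted p = 0.701). The ratio of MX1 to MX2 TPM was 9.45 in MCC13 and 82.6 in MKL-2, against 0.228 in REH. Within the MCC lines the highest MX1 level was 398 times the lowest, the widest span of any member detected in all 4.

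IFIT1 (ENSG00000185745, chromosome 10) encodes a protein that binds foreign RNA lacking the cap marks of the host. Its level was 2.23 TPM in MCC13, 0.379 TPM in WaGa, 7.21 TPM in MKL-2 and 5.14 TPM in MKL-1, against 15.6 TPM in REH. The order of the lines was the same as for IRF1, with REH first, then MKL-2, MKL-1, MCC13 and WaGa. MCC minus REH was -2.10 ± 1.15 on the log2 scale (SE, limma adjusted p = 0.450). The lysosomal lipase gene LIPA overlaps IFIT1 on the other strand, and whether counting used the strand is not stated.

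IFI6 (ENSG00000126709, chromosome 1), a small membrane protein reported to oppose cell death and flavivirus replication, was the most abundant member in every line. Its level was 62.2 TPM in MCC13, 118 TPM in WaGa, 1058 TPM in MKL-2 and 293 TPM in MKL-1, against 213 TPM in REH. MKL-2 and MKL-1 lay above REH, and WaGa and MCC13 below it. MCC minus REH was 0.04 ± 1.61 on the log2 scale (SE, limma adjusted p = 0.993), and its sign turned when MKL-1 or MKL-2 was left out (-0.10 and -0.72). MKL-2 minus the other 3 MCC lines was 3.03 ± 0.95, with an unadjusted p of 0.0310 and a limma adjusted p of 0.9997.

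IFI6 and ISG15, both with ISRE cores in their windows, ran apart from line to line. The ratio of IFI6 to ISG15 TPM was 1.11 in MCC13, 25.0 in WaGa, 107 in MKL-2 and 60.2 in MKL-1, against 1.16 in REH. In MCC13 and REH the pair stood at nearly equal TPM, MCC13 being lower in both genes. The ratios are a description, since each rests on 1 library.

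**Figure D2:**
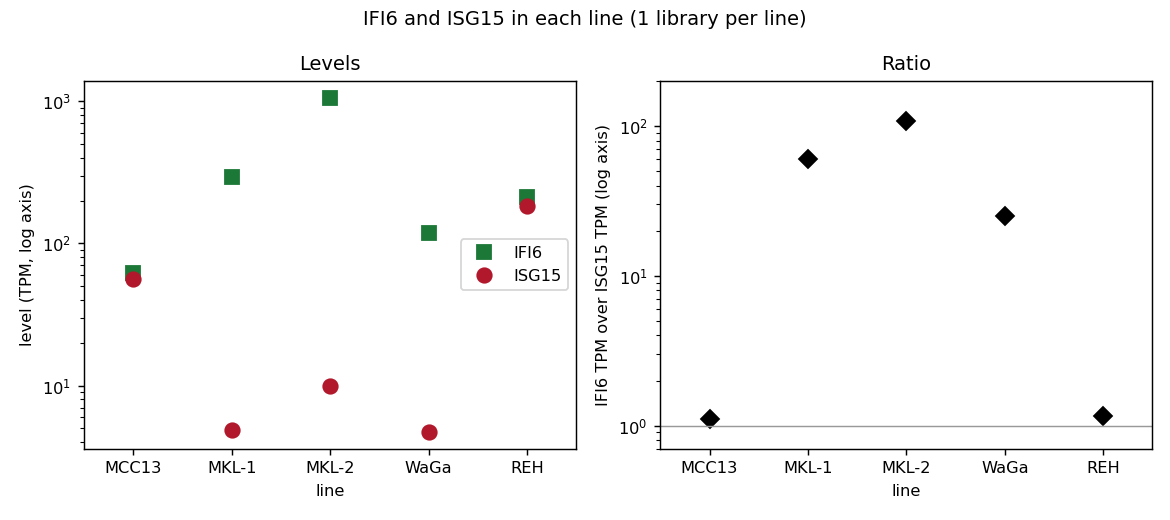
Left, level (TPM, log axis) of IFI6 (green squares) and ISG15 (red circles) in each line. Right, their ratio (log axis, with a grey line at 1). Each point is 1 library. The ratio is 1.11 in MCC13 and 1.16 in REH, and 25.0 or more in each of the other lines.

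Counted together, 2 of the 9 members (OAS2 and MX2) passed in the comparison of the 4 MCC lines with REH, both lower in MCC. Of all 22250 genes tested, 5.24% passed in either direction, 4.15% lower and 1.09% higher. With ISG15, 3 members had an unadjusted p under 0.05, as did 18.6% of genes. The median member difference was -2.10, against 0.18 over all genes tested. When MKL-1, MKL-2 and WaGa were compared with REH, 3 members (ISG15, OAS2 and MX2) passed, all lower, against 13.3% of 21247 genes in either direction, 8.42% lower and 4.89% higher. The same 3 had an unadjusted p under 0.05, as did 30.9% of genes. Here the median member difference was -2.02, against 0.20 over all genes. MX2 in both comparisons, and OAS2 in that without MCC13, reached the filter of 1 TPM through REH alone. They could thus only be called lower. Their MCC levels there were near the floor, at most 0.451 TPM for MX2 and 0.228 TPM for OAS2. These comparisons share REH and 3 of the MCC lines. Every one of these calls was lost on leaving out any 1 of WaGa, MKL-1 and MKL-2, a setting in which no gene of the table passed with limma (3194 to 3432 genes had an unadjusted p under 0.05 in the comparison of MCC with REH, and 5296 to 6068 in that of the 3 lines). A test of a single gene by exact permutation cannot go below 0.2 with 4 lines against 1 or 0.25 with 3 against 1, so a call rests on the spread that limma shares over genes.

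**Figure D3:**
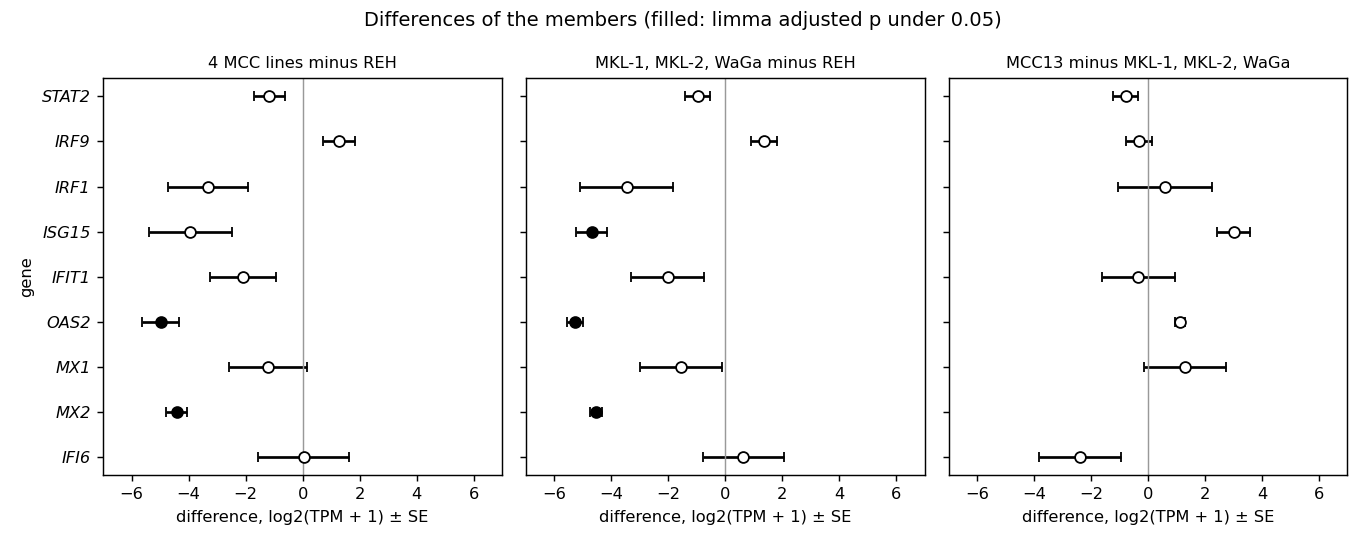
Difference of each member in log2(TPM + 1), with its SE as a bar, in the comparisons of the 4 MCC lines with REH, of MKL-1, MKL-2 and WaGa with REH, and of MCC13 with those 3 lines. Filled points have a limma adjusted p under 0.05. OAS2 and MX2 are filled in both comparisons with REH and ISG15 in the second, and no point is filled in the third, in which MX2 was not tested.

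Among the MCC lines no member passed in any comparison of 1 line with the other 3. For MCC13, 0 of 8 members tested passed, against 8.95% of 20698 genes (6.47% higher and 2.47% lower). ISG15 and OAS2 had an unadjusted p under 0.05 (0.0105 and 0.00599), as did 26.6% of genes. OAS2 stood at 1.13 ± 0.18 on the log2 scale, MCC13 minus the other 3 lines (SE, limma adjusted p = 0.0593, with 0.0348 to 0.196 over the alternatives), and passed after quantile normalization only. For MKL-1, MKL-2 and WaGa each, 0 of 8 members passed, against 0% of all genes, although 296 genes (1.43%) for MKL-1, 638 (3.08%) for MKL-2 and 467 (2.26%) for WaGa had an unadjusted p under 0.05 with limma. Of the members, IFI6 in MKL-2 and IRF1 in WaGa were among them, as given above, and none was for MKL-1.

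As a description, MKL-2 was above the other 3 MCC lines for 4 of 8 members (IRF1, IFIT1, MX1 and IFI6), a position it held for 23% of genes, and was below them for none, against 19% of genes. WaGa was below the other 3 for 4 of the 8 (the genes IRF1, ISG15, IFIT1 and MX1), against 18.6% of genes, and above them for IRF9 (23% of genes). In ISG15, however, WaGa and MKL-1 were nearly level (4.70 and 4.86 TPM). MKL-1 was above the other 3 for STAT2 (26.3% of genes) and below them for OAS2 (14.3% of genes). For OAS2 MKL-1 was listed at 0 and WaGa at 0.0272 TPM, both near the floor. MKL-2 exceeded WaGa by 2 or more on the log2 scale for 4 members, again IRF1, IFIT1, MX1 and IFI6, against 3.61% of genes in that pair of libraries. WaGa was lower than MCC13 by as much for IRF1, ISG15 and MX1 (9.97% of genes), and lower than MKL-1 for IRF1 and IFIT1 (2.84% of genes). MKL-1 was lower than MKL-2 for MX1 (3.19% of genes). Set against MCC13, MKL-1 was lower for ISG15 and MX1 (9.4% of genes) and MKL-2 for ISG15 (9.59%), while IFI6 was higher in MKL-1 (11.3%) and in MKL-2 (10.8%). Against REH, 4 of the 9 members were lower by 2 or more on the log2 scale in MCC13 (9.17% of genes), 6 in WaGa (9.26%), 5 in MKL-1 (9.14%) and 4 in MKL-2 (9.45%). IFI6 in MKL-2 was the 1 member higher than in REH by 2 or more (12.6% of genes). Where a level was under 1 TPM, as for IFIT1 and MX1 in WaGa (0.379 and 0.0162 TPM), the size of these differences depends on the pseudocount. MCC13 was above the other 3 for ISG15 and OAS2 (27.7% of genes) and below them for STAT2, IRF9 and IFI6 (43.4% of genes). The line labelled MCC13 is also the MCC line with the fewest neuroendocrine markers, and the part of that difference in these levels was not tested.

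The wider pathway was followed through lists of genes with related roles. No interferon gene could be tested: of 21 ligand genes none reached 1 TPM in any line, and the highest values were 0.227 TPM for IFNE in MCC13 and 0.162 TPM for IFNB1 in MKL-2. The receptors and kinases were present throughout, all 9 being at 1 TPM or more in each MCC line and 8 in REH. None of the 9 passed against REH, where 5.24% of all genes did. Their median difference was -0.83, against 0.18 over all genes. TYK2 averaged lower in MCC (-1.06 ± 0.35, SE, limma adjusted p = 0.214), and JAK1 differed by 0.11 ± 0.64 (SE, limma adjusted p = 0.941). Of 14 negative regulators none passed, with a median of 0.12; PTPN11, a phosphatase, held 122 to 186 TPM in the MCC lines and 135 TPM in REH, and IRF2BP2, a repressor partner, 90.6 to 139 TPM in the MCC lines and 153 TPM in REH.

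Among 12 other STAT and IRF genes tested, 1 was higher and 2 were lower in MCC than in REH, with a median of -1.16. Of all genes tested, 1.09% were higher and 4.15% lower, with a median of 0.18. STAT3, which carries signals of the interleukin-6 family, was 120 to 186 TPM in the MCC lines and 39.4 TPM in REH (1.98 ± 0.33, SE, limma adjusted p = 0.0495). STAT6, which acts downstream of interleukin-4, was 0.122 to 2.32 TPM in the MCC lines and 212 TPM in REH (-6.97 ± 0.80, SE, limma adjusted p = 0.0195). IRF5, a factor prominent in B and myeloid cells, was 0.0868 to 0.418 TPM in the MCC lines and 23.2 TPM in REH (-4.32 ± 0.35, SE, limma adjusted p = 0.00771). Neither STAT6 nor IRF5 belongs to the type I complex. IRF5 reached 1 TPM in REH alone, and IRF4 did so once MCC13 was left out, so there only a lower level could be called. In the comparison without MCC13, STAT6, IRF5, STAT5A (-3.62 ± 0.36) and IRF4 (-1.61 ± 0.16) were lower and none was higher. There 8.42% of all genes were lower and 4.89% higher.

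The genes listed for attaching ISG15 to its targets differed in their order of lines. UBA7, UBE2L6 and HERC5 had REH highest and MCC13 second, as ISG15 had. HERC6 was highest in MCC13 (8.34 TPM, against 4.05 TPM in REH) and TRIM25 in MKL-1 (92.2 TPM, against 85.0 TPM in REH). ARIH1 was lowest in MCC13 (18.8 TPM, against 34.3 TPM in REH). UBE2L6, the conjugating enzyme, was 90.2 TPM in MCC13, 30.2 TPM in WaGa, 14.3 TPM in MKL-2 and 2.05 TPM in MKL-1, against 303 TPM in REH. HERC5, the main ligase, was 4.29 TPM in MCC13, 0.0320 TPM in WaGa, 1.77 TPM in MKL-2 and 0.116 TPM in MKL-1, against 146 TPM in REH. HERC5 had the same order of all 5 lines as ISG15, while for UBE2L6 the order of WaGa, MKL-2 and MKL-1 was another. WaGa and MKL-1 were nearly level in ISG15 and both near the floor in HERC5, so their order rests on small gaps. Of 7 genes in this list none passed for the 4 MCC lines (median -1.07), and 2 were lower without MCC13, UBA7, the activating enzyme (-4.93 ± 0.43, SE, limma adjusted p = 0.0162), and HERC5 (-6.64 ± 0.79, SE, limma adjusted p = 0.0275). Over all genes 8.42% were lower in that comparison without MCC13, and 5.24% passed in either direction for the 4 MCC lines. USP18, which removes ISG15 and blunts the type I receptor, did not share the order of ISG15: USP18 was 22.0 TPM in MCC13, 5.62 TPM in WaGa, 45.5 TPM in MKL-2 and 30.5 TPM in MKL-1, against 19.1 TPM in REH. Its reads may be shared with the near-identical copy USP41.

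Relatives of the effectors differed among themselves. Of the other 3 IFIT genes none passed (median -2.98), against 5.24% of all genes. IFIT2 had the same order of lines as IFIT1, with 0.0482 to 3.06 TPM in the MCC lines and 17.2 TPM in REH (-2.98 ± 0.88, SE). IFIT3 held 10.9 TPM in MCC13, at most 2.49 TPM in the other MCC lines (WaGa was listed at 0) and 30.1 TPM in REH. IFIT5 went the other way, with 7.43 to 20.3 TPM in the MCC lines and 6.30 TPM in REH. Of 5 OAS and RNase L genes tested none passed (median -0.39). OAS1, like OAS2, lay under REH in every MCC line, with 2.16 to 6.35 TPM in MCC and 28.9 TPM in REH (-2.64 ± 0.76, SE). OAS3, the large relative of OAS2, was 39.6 to 70.1 TPM in the MCC lines and 69.3 TPM in REH, so the near absence of OAS2 in MCC did not extend to OAS3. ABCE1, a ribosome recycling factor that also inhibits RNase L, was 79.6 to 213 TPM in the MCC lines and 79.5 TPM in REH.

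Of 35 further classic interferon-stimulated genes tested, 3 were lower in MCC than in REH and none was higher, with a median of -1.70. They were TRIM22 (-6.72 ± 0.43, SE, limma adjusted p = 0.00572), an antiviral ubiquitin ligase, XAF1 (-4.02 ± 0.30, SE, limma adjusted p = 0.00658), which promotes cell death, and GBP4 (-3.85 ± 0.50, SE, limma adjusted p = 0.0252), a guanylate-binding protein. Over all genes 4.15% were lower and 1.09% higher. TRIM22, XAF1 and GBP4 were at most 0.324, 0.261 and 0.877 TPM in MCC, so REH alone brought them into the test. They could thus only be called lower. In the comparison without MCC13, given below, the same held for TRIM22, IFI16, TRIM5, IFI44 and SP100. REH exceeded all 4 MCC lines for 17 of the 35, against 25.6% of all genes. BST2, or tetherin, which holds budding virions at the cell surface, was 6.93 TPM in MCC13, 0.122 TPM in WaGa, 10.7 TPM in MKL-2 and 0.0358 TPM in MKL-1, against 492 TPM in REH. The gap in BST2 did not pass (-7.26 ± 1.73, SE, limma adjusted p = 0.110). Without MCC13, 11 of 34 were lower and none higher (median -2.14), against 8.42% lower and 4.89% higher over all genes, led by TRIM22, IFI16, TRIM5, IFI44, SP100 and IFI35.

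In the comparison of MCC13 with the other MCC lines, 8 of the 30 genes of this last list that were tested were higher in MCC13 and none lower, against 6.47% higher and 2.47% lower over all genes. The median was 0.75, against -0.30 over all genes. SP100, IFI16, GBP1, IFI44, TRIM5, SAMD9L and GBP2 reached 1 TPM in MCC13 alone of these lines, so they could only be called higher. The same held for SOCS3 and IRF4, named further on. SP100, a nuclear body protein, held 82.1 TPM in MCC13, against 0.0182 to 0.0425 TPM in the other 3 lines (6.33 ± 0.27, SE, limma adjusted p = 0.00855). IFI16, a DNA sensor, was 77.4 TPM in MCC13 and listed at 0 in the other 3. GBP1, a guanylate-binding protein, held 80.1 TPM in MCC13, against 0.0136 to 0.688 TPM in the other 3. IFI44 (4.94), TRIM5, a capsid-binding restriction factor (4.15), and SAMD9L, an antiviral protein (3.63), were also higher on the log2 scale, as were GBP2 and DDX58. SOCS3, an inhibitor of JAK kinases, was the 1 negative regulator of 14 that passed, with 54.7 TPM in MCC13, against 0.0228 to 0.331 TPM in the other 3 lines (5.56 ± 0.32, SE, limma adjusted p = 0.00941). STAT5A and IRF4 were the 2 of 11 STAT and IRF genes that passed, both higher in MCC13 (2.71 and 2.01). No gene passed in the receptor, ISG15 conjugation, IFIT or OAS lists, and with any 1 of MKL-1, MKL-2 and WaGa left out no gene of the table passed with limma, while 4414 to 4978 had an unadjusted p under 0.05. Of 8 mesenchymal markers 7 averaged higher in MCC13 and S100A4 lower, and their part in these levels was not tested.

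**Figure D4:**
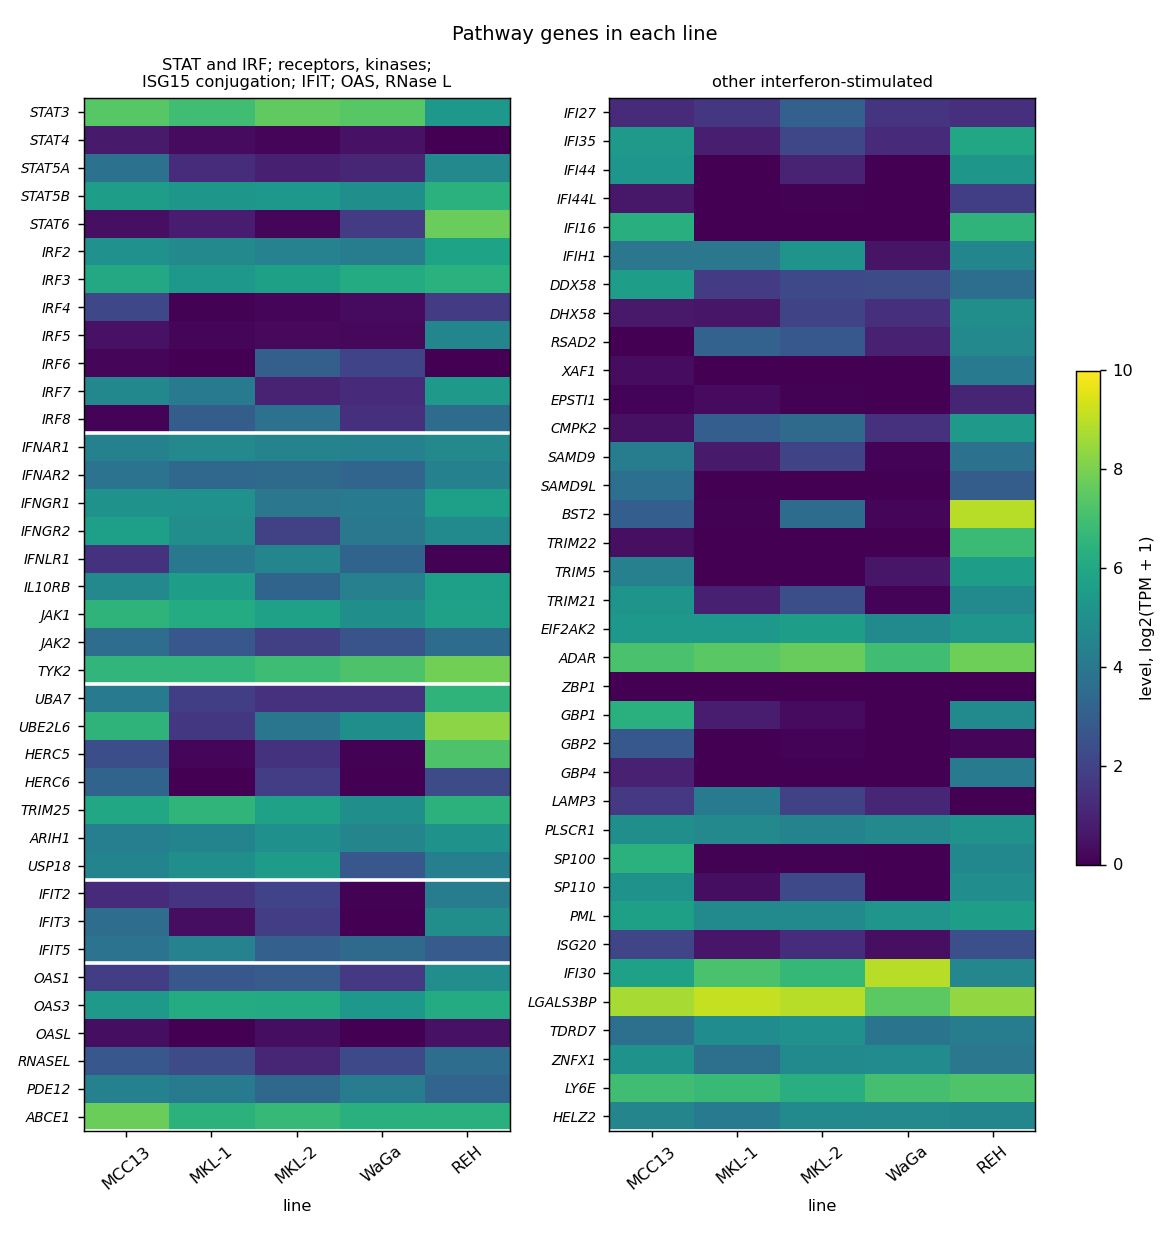
Level, as log2(TPM + 1), of pathway genes outside the members in each line (1 library per line), with white lines between the lists on the left. The other interferon-stimulated genes are on the right. There SP100, IFI16 and GBP1 are brighter in MCC13 and REH than in the other lines, where they are dark, and BST2 and TRIM22 are brightest in REH.

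Genes with the most similar pattern were sought among 12211 protein-coding genes at 10 TPM or more in some line. Likeness was the root mean square distance between mean-centred log2(TPM + 1) profiles over the 5 lines. Nearest to STAT2 were DCXR (distance 0.0581), CDCA7 (0.0825), CASP2 (0.0900), PBLD (0.0960) and FAM132B (0.0998), none of which is on the lists. For IRF1 they were PRKCE (0.379), NFIL3 (0.434), CCDC71L (0.523), IFIT2 (0.585) and RILPL2 (0.609), of which IFIT2 is an interferon-stimulated gene. Nearest to ISG15 were ARHGAP27 (0.234), DUSP1 (0.257), PTPRE (0.294), SIGLEC15 (0.322) and APOL3 (0.323). The distances rest on 1 library per line and are descriptive. They are not scaled to the spread of each gene, so they cannot be compared between members.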

How the data were processed

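The authors deposited gene expression as TPM values for 57905 genes. The submitters' processing notes name StringTie 1.3.5, SAMtools 0.1.19, STAR 2.4.5b and bcl2fastq 2.20, and GRCh37 and hg19 as builds. What each tool did, the annotation and any use of strand in counting are not given in the sources. Per the labels, mRNA was enriched with oligo-dT and the kit was directional. In the deposited table, 1 column of values matched no sample and was not used, nor was a table of PAX5 exons. An exact 0 is described as listed at 0, since it can be a failed estimate.

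Tests on log2(TPM + 1) took genes that reached 1 TPM in any line of a comparison and used limma 3.58.1 under R 4.3.3 (variance trend, 2-sided, Benjamini-Hochberg over all genes tested, threshold 0.05), in 6 comparisons. This scale understates differences of genes at low levels. Where the line that stood alone was the only one to reach 1 TPM, a gene could be called higher in that line only. Lists hold counts and medians and were given no test of their own. Python 3.11.15 was used for levels, ratios and promoter letters, and the fits were tested on simulated data. Replicates were cultures of different lines, so p measures the spread between lines. The members and the lists were chosen with earlier results of these data known. The genes named were all members, the passing genes of each list (up to 6), or, where fewer than 2 passed, the 2 with the highest TPM, and the 5 nearest in pattern to STAT2, IRF1 and ISG15. USP18, HERC6, TRIM25, ARIH1, OAS1, IFIT2, BST2, GBP2, DDX58 and some cell type markers are named beyond this rule, a choice made after seeing their values. RefSeq coordinates are of GRCh38.p14 and serve the promoter sequences only. Alternatives were another pseudocount (0.1 or 5), no filter, a filter on a mean of 5 TPM, quantile normalization, removal of mitochondrially encoded genes, no variance trend and leaving out each line. Some pathway genes stay in every test and count but are not reported here.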

Additional observations from a re-analysis of the deposited data

How the results depend on the processing

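The counts of genes called moved with the filter and with the lines included. Without a filter 3794 genes passed for MCC against REH, 4852 for MKL-1, MKL-2 and WaGa against REH, 3513 for MCC13, 1680 for MKL-1, 1875 for MKL-2 and 1410 for WaGa against the other 3 MCC lines, where the counts with it were 1166, 2828, 1852, 0, 0 and 0. Among genes averaging 5 TPM or more the first 3 were 288, 1841 and 1167, fewer genes being tested. With 1 line left out in turn, the count ran between 0 (without MKL-1, MKL-2 or WaGa) and 2828 (without MCC13) for MCC against REH, and was 0 each time for the 3 lines against REH and for MCC13. Leaving out a line lowers the residual degrees of freedom, and in the comparisons of 3 lines with 1 it leaves 1.

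Of 335 member values under the other alternatives, 329 kept their direction and their side of the threshold, as did 131 of 156 with a line left out. OAS2 against REH was lost for the 4 MCC lines with a pseudocount of 0.1 (adjusted p = 0.126) and with the filter on a mean of 5 TPM (0.0736), and MX2 with a pseudocount of 0.1 (0.0624), where the cause was not tested. ISG15 in MKL-1, MKL-2 and WaGa against REH was lost without a filter (adjusted p = 0.0549, with 0.0181 to 0.127 over the alternatives), and passed for the 4 MCC lines when MCC13 was left out (0.0270, with 0.0270 to 0.464 over the alternatives). OAS2 in MCC13 passed after quantile normalization (0.0348). Directions turned, with a line left out, for IFI6 in MCC against REH (log2 difference -0.72 to 0.64), IFI6 in the 3 lines against REH (-0.20 to 1.38), IRF1 in MCC13 (-0.44 to 1.22), IFIT1 in MCC13 (-1.14 to 0.15), IRF9 in MKL-1 (-0.20 to 0.15), IRF1 in MKL-1 (-0.058 to 1.60), IFI6 in MKL-1 (-0.27 to 1.76) and ISG15 in MKL-2 (-0.75 to 0.91). OAS2 in MKL-2 turned with a pseudocount of 0.1 (0.31). None of these passed the threshold. In pairs of single libraries, 18 member differences crossed a log2 difference of 2 with another pseudocount. Quantile normalization moved the median of all genes to 0.07, from 0.18, for MCC against REH, to 0.05, from 0.20, for the 3 lines, and to -0.15, from -0.30, for MCC13, and no member changed direction with it.

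No paired analysis was possible because each line had 1 library and the labels pair no MCC line with REH. No MCC line stood apart from the other 3 by Dixon's criterion for any member, WaGa in IRF1 coming closest (a gap of 0.811 of the range). Read depth is unknown, so no counting error can be given for low values.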
